A study of Homo sapiens with 2 samples.

Results

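The genes that open DNA replication origins and run the replication fork were compared in MDA-MB-231 cells after 2 Gy × 4 days of ionizing radiation (IR) and without it. The set holds 49 genes given by name, and was measured by every array probe whose current or former gene symbol is one of them (CDC45, for example, is also known as CDC45L). All 49 genes were found, on 54 probes, and all 54 probes lay above the blank spots on both arrays, among 17778 named genes with such a probe.

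Before S phase, the origin recognition complex (ORC) sits on DNA and, with CDC6 and CDT1, loads the ring of MCM2 to MCM7, which stays inactive until the kinase CDC7 with its partner DBF4, CDC45 and the GINS complex turn it into the fork's helicase. Behind the helicase, primase and polymerase alpha start each strand, the clamp loader RFC sets the ring-shaped clamp PCNA on the DNA, polymerases delta and epsilon extend the strands, RPA covers the single strands, and FEN1 trims the flaps between Okazaki fragments. Transcripts of many of these genes are made late in G1 and in S phase under the E2F factors.

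The irradiated culture received a daily dose of 2 Gy for 4 days and the other culture 0 Gy, and 1 array was made of each. The cells, MDA-MB-231, are a triple-negative breast cancer line of human origin with mesenchymal features, grown in both cases as 3D lrECM cultures on Matrigel, a laminin-rich basement membrane gel. Amplified RNA labelled with Cy5 was hybridised to a 1-colour 3D-Gene oligonucleotide chip, so that each probe gives 1 brightness per sample. Since each condition has a single array, no test between conditions was possible, every ratio is that of these 2 arrays, and culture, RNA extract, chip and radiation cannot be told apart.

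Each array held 24456 usable gene probes. The median gene probe read 51.9 brightness units on the irradiated array and 57.9 on the untreated array, against a median blank spot of 13.6 on the irradiated and 12.2 on the untreated array, so equal raw spots stand for a slightly higher relative signal after IR. The line's 6 high markers (VIM, CD44, EGFR, CAV1, AXL and MSN) were detected on both arrays. Of 6 genes that are low in this line, ERBB2, CDH1, EPCAM and KRT19 were also detected on both arrays, PGR on the untreated array only and ESR1 on neither. Of 8 markers of endothelial cells, leukocytes and fibroblasts 6 were detected on both arrays, with ratios of irradiated over untreated of 0.606 to 1.04 (0.345 to 1.41 on the authors' value table), and the leukocyte marker PTPRC on neither. The part of other cells in the results was not tested. The probes of a chip lie in 104 columns, and over all probes the ratio was lower towards the last columns, so the column is given with the members. Ratios below are given on a pair of scales. The normalized signal adds an offset of 50 after background correction, which pulls the ratios of dim probes towards 1. The authors' value table matches the spot with the blank level taken off and each array scaled to a median of 25, with no offset.

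Because transcripts of these genes are known to depend on E2F factors, the promoters of the members were searched for the E2F words TTTCCCGC, TTTCGCGC, TTTGCCGC and TTTGGCGC on both strands, in the 250 bases before and 50 bases after each start site. Overlapping words were counted once per window. Promoter windows (RefSeq, build GRCh38.p14) were matched for 43 of the 49 members, and 22 of them (51.2%) held at least 1 word, against 783 of 13765 detected genes with a window (5.69%) and 3.31% of all promoter windows. Words were found in the windows of 4 of 4 matched MCM helicase subunits and 3 of 3 licensing genes, in 4 of 6 firing genes and in 1 of 5 ORC genes. As examples, 1 stretch of 60 bases is shown for 8 members from different steps of replication. Each is read 5′ to 3′ along the gene and lies wholly before the start site, with 1 word in capitals. GCGGGAAA, GCGCGAAA and GCGCCAAA are words read on the other strand. In MCM6 (GCGCGAAA) and TIPIN (GCGCCAAA) such a word overlaps the capitals and runs on in lower case.
MCM3 (helicase; chr6:52284883-52284942, minus strand): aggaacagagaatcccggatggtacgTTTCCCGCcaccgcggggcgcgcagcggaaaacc
MCM6 (helicase; chr2:135876562-135876621, minus strand): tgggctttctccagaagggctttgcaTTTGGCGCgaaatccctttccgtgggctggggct
MCM7 (helicase; chr7:100101551-100101610, minus strand): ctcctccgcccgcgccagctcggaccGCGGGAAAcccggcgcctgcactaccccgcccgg
CDT1 (licensing; chr16:88803728-88803787, plus strand): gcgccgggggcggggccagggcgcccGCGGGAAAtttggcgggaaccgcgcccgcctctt
CDC7 (firing; chr1:91501018-91501077, plus strand): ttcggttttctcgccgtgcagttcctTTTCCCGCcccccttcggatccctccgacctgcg
PCNA (clamp; chr20:5126648-5126707, minus strand): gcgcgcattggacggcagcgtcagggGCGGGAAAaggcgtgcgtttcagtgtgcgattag
POLA2 (polymerase alpha; chr11:65261883-65261942, plus strand): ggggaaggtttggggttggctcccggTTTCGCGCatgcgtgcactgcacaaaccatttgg
TIPIN (fork protection; chr15:66356718-66356777, minus strand): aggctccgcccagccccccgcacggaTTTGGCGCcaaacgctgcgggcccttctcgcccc

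A match of these letters is a description of the window and not a binding site. The 22 members with a word had a median log2 difference of 0.10 between the irradiated and the untreated array, and 18 of them had a higher signal after IR. The 21 without a word had a median of -0.03, with 10 higher. Over all detected genes with a window, 485 of 783 with a word were higher (median 0.03) and 7230 of 12982 without (median 0.02). With the chip trend described below removed, the medians were 0.10 with a word and 0.01 without, with 18 of 22 and 11 of 21 higher. The genes without a word include RFC1, RFC2, RFC4 and RFC5, whose probes lie at the end of the chip that was dimmer after IR.

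Across the 49 genes the differences were small. No member reached 1.5-fold in either direction on the normalized signal, a size reached by 0.298% of all detected genes in the higher and by 1% in the lower direction. A higher signal after IR was seen for 33 members and a lower one for 16, against 55.3% higher among all detected genes. The median log2 difference of the members was 0.08, with 0.01 over all detected genes, and the ratios ran between 0.715 (CHAF1A) and 1.29 (PCNA). Higher values were given for 34 members on the value table, against 55.7% of all detected genes, and the median was 0.15, with 0.04 over all genes. On that scale 2 members, GINS4 and MCM10, passed 1.5-fold in the higher direction (3.98% of all detected genes) and 1, CHAF1A, in the lower direction (6.5%). Among the 2362 genes that have 2 detected probes, the probes of a gene differed in log2 difference by a median of 0.13 on the normalized signal, with a 95th percentile of 0.53. The log2 difference of 25 members was larger than that median and of 0 members larger than that 95th percentile. These 2 counts were not computed over all detected genes. The spread between probes is also not a replicate error, since each condition has 1 array. In bulk RNA, a different share of cells in S phase and a different amount of each transcript per cell cannot be told apart.

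**Figure D1:**
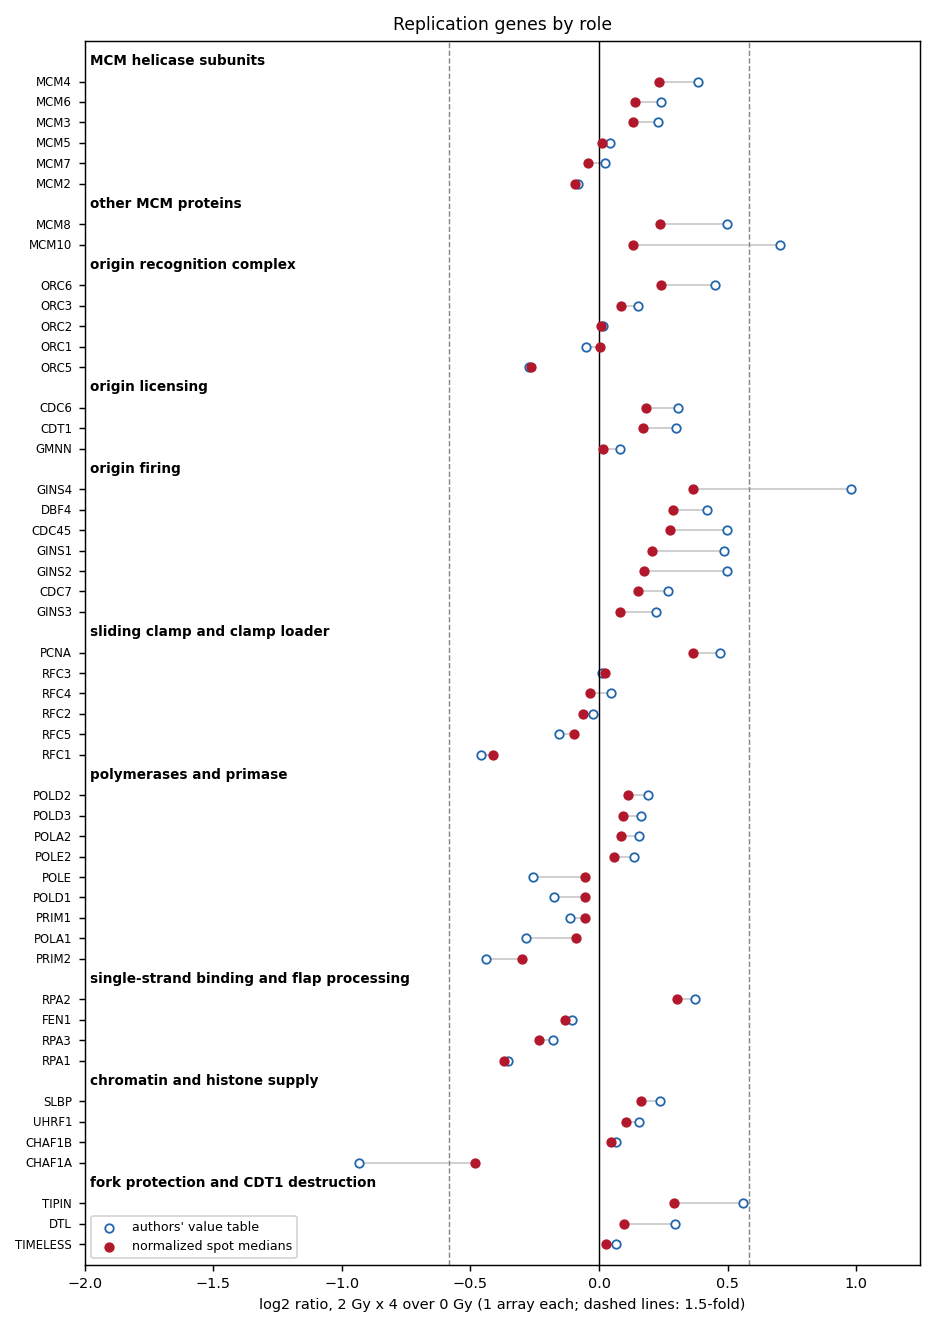
Each row is 1 of the 49 replication genes, grouped by role, and the x axis is the log2 ratio of the 2 Gy × 4 array over the 0 Gy array. Filled points are normalized spot medians and open points the authors' value table, with dashed lines at 1.5-fold. All 7 firing genes lie right of 0 on both scales, and only GINS4, MCM10 and CHAF1A have an open point beyond a dashed line.

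Of the roles with more than 2 members, the genes that turn a loaded origin into a running fork had the highest median. All 7 firing genes (CDC7, DBF4, CDC45 and GINS1 to GINS4) had a higher signal after IR, against 55.3% of all detected genes. Their probes lie in columns 15 to 71, and 65.0% of all detected probes in columns 1 to 78 were higher. The median log2 difference of the firing genes was 0.21 on the normalized signal and 0.48 on the value table. Each of the 7 stayed higher in every processing setting that gave it a value. With the background around each spot subtracted, the ratios were 1.01 to 1.07 for the GINS genes, 1.08 for CDC7, 1.17 for CDC45 and 1.33 for DBF4. DBF4, the regulatory subunit that activates CDC7, had a spot median of 284 on the irradiated array and 246 on the untreated array, a ratio of 1.22 (1.34 on the value table). CDC45, which binds MCM and GINS to form the active helicase, had 79 on the irradiated and 65.7 on the untreated array, a ratio of 1.21 (1.41 on the value table). GINS4, a GINS subunit, had 50.3 on the irradiated and 33.7 on the untreated array, beside local backgrounds of 39.1 and 19.6. Its ratio was 1.29 on the normalized signal and 1.97 on the value table, the widest gap between the scales among the firing genes. The probes of DBF4, CDC45 and GINS4 lie in columns 55, 44 and 15, none of them among the last 26. GINS1 (1.15), GINS2 (1.13), CDC7 (1.11) and GINS3 (1.06), the last a mean of 2 probes, had smaller ratios on the normalized signal, all above 1.

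Of the 3 genes of origin licensing, CDC6 and CDT1 had a higher signal as well, by less, and GMNN was nearly equal on the 2 arrays. CDC6, the loader ATPase, had spot medians of 101 on the irradiated and 94.2 on the untreated array, a ratio of 1.13. CDT1, which brings the MCM ring to the origin, had 91.1 on the irradiated and 85.3 on the untreated array, a ratio of 1.13. GMNN encodes geminin, the protein that blocks CDT1 after origins have fired, and its 2 probes had ratios of 1.01 and 1.01, with 317 and 469 brightness units on the irradiated array and 341 and 514 on the untreated array. The normalized signal of GMNN turned to 0.992 with the chip trend taken off. DTL, a subunit of the ubiquitin ligase that destroys CDT1 in S phase, had a ratio of 1.07 (1.23 on the value table).

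The subunits of the origin recognition complex did not share a direction. ORC6, the smallest subunit, had spot medians of 74.6 on the irradiated and 63.9 on the untreated array, a ratio of 1.18 (1.37 on the value table). Its probe lies in column 84, among probes whose local median was lower on the irradiated array. ORC5 had 184 on the irradiated and 251 on the untreated array, a ratio of 0.832 (0.827 on the value table) in column 68. ORC2 (1.01) and ORC3 (1.06) lay between them, and ORC1, with a log2 difference of 0.01, was nearly equal on the 2 arrays. ORC3 turned to 0.929 with the background around each spot subtracted.

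The 6 subunits of the MCM helicase, which are made as parts of 1 ring, had ratios of 0.937 to 1.18 and a median log2 difference of 0.07. MCM4 had spot medians of 110.1 on the irradiated and 97.7 on the untreated array, a ratio of 1.18 (1.31 on the value table). MCM6 had 346 on the irradiated and 337 on the untreated array, a ratio of 1.10 (1.18 on the value table). MCM3 had 171 on the irradiated and 168 on the untreated array, a ratio of 1.10 (1.17 on the value table). Of these 3 subunits with a higher signal after IR, MCM4 changed direction, to 0.915, with the background around each spot subtracted. MCM5, in column 12, had 113 on the irradiated and 124 on the untreated array, a ratio of 1.01 (1.03 on the value table). MCM7 had 383 on the irradiated and 433 on the untreated array, a ratio of 0.970 in column 85. MCM2 had 151 on the irradiated and 180.3 on the untreated array, a ratio of 0.937 (0.946 on the value table). MCM7 was above 1 on the value table (1.02) and with the chip trend taken off (1.01), but at 0.713 with the background around each spot subtracted. MCM2 was lower in every setting that gave it a value, at 0.815 under that subtraction. The probes of MCM2, MCM4 and MCM6 share column 66 of the chip, with MCM3 in column 64.

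The 2 other members with an MCM name, MCM8 and MCM10, also had higher signals on both scales. MCM8, which works in repair by recombination, has 2 probes, both in column 75, with spot medians of 119 and 26.1 on the irradiated array and 90.8 and 23.5 on the untreated array. Their ratios were 1.31 for the brighter and 1.06 for the dimmer one (1.55 and 1.29 on the value table). MCM10, which helps to switch on the helicase, is dim, with 26.2 on the irradiated and 21.2 on the untreated array. Its ratio was 1.10 on the normalized signal and 1.63 on the value table, and it turned to 0.981 on the normalized signal with the chip trend taken off.

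The sliding clamp and its loader split. PCNA, the clamp that tethers the polymerases to DNA, had spot medians of 858 on the irradiated and 718 on the untreated array and the highest ratio of all members, 1.29 (1.39 on the value table). Of all detected genes, 98.0% lay below that ratio. Its probe lies in column 15, and with the chip trend taken off the ratio was 1.14. The local background around the PCNA spot was brighter than the spot on both arrays, and PCNA had a ratio of 0.929 when that background was subtracted. RFC1, the large subunit of the clamp loader, was lower on both of its probes, with 213 and 145 brightness units on the irradiated array and 350.1 and 208 on the untreated array, ratios of 0.700 and 0.807 (0.682 and 0.778 on the value table). RFC2 (0.957), RFC3 (1.02), RFC4 (0.977) and RFC5 (0.936) lay nearer to 1. Of these RFC5 was the lowest, with 80.9 on the irradiated and 99.1 on the untreated array (0.897 on the value table). All 6 probes of the loader lie in columns 84 and 91, where the whole chip was dimmer after IR. With that trend taken off, RFC2 to RFC5 had ratios of 1.03 to 1.11, and RFC1 stayed lower at 0.821.

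**Figure D2:**
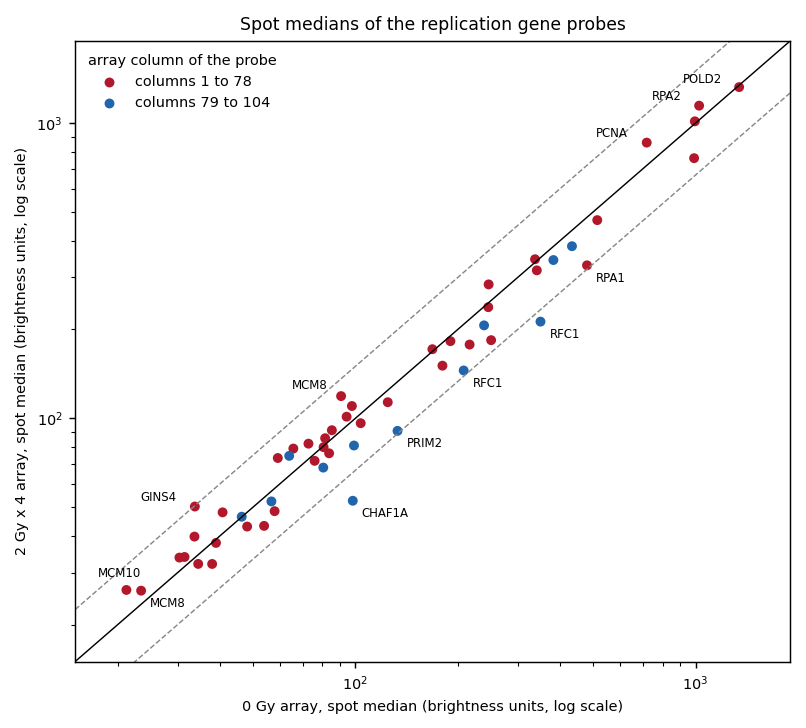
Each point is 1 of the 54 replication gene probes, with its spot median in brightness units on the 2 Gy × 4 array (y axis) and on the 0 Gy array (x axis), both on log scales and without normalization. Red points are probes in columns 1 to 78 and blue points those in columns 79 to 104; the solid line marks equal spots and the dashed lines 1.5-fold. CHAF1A (52.6 against 98.3) and the RFC1 probe of column 84 (213 against 350.1) are blue points below the lower dashed line.

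Polymerase and primase genes had 4 members higher and 5 lower after IR, with a median log2 difference of -0.05. PRIM2, the large subunit of primase, in column 83, had spot medians of 90.7 on the irradiated and 133 on the untreated array, a ratio of 0.812 (0.738 on the value table), and was lower in every setting that gave it a value. Its partner PRIM1, the catalytic subunit, had a ratio of 0.962. The catalytic subunits of the 3 replicative polymerases all lay below 1, at 0.940 for POLA1, 0.962 for POLD1 and 0.963 for POLE, and did so in every setting that gave them a value. Their accessory subunits POLA2 (1.06), POLD2 (1.08), POLD3 (1.07) and POLE2 (1.04) all lay above 1. The log2 differences of these polymerase subunits were all smaller than 0.13, the median difference between 2 probes of a gene. On the irradiated array the POLA1 spot (43.2) and the POLD1 spot (48.5) were dimmer than their local backgrounds (43.3 and 53.1). POLA1, POLD1, POLE, POLD2 and POLE2 share column 76, while POLD3 lies in column 59 and POLA2 in column 90, and the part of array position in this split was not tested. POLA2 kept its direction in every setting that gave it a value, and the other accessory subunits did not. POLD2 in particular, whose spot was 1323 on the irradiated and 1343 on the untreated array beside a local background of 1401 on the irradiated and 910.3 on the untreated array, turned to 0.165 when that background was subtracted.

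The 3 subunits of RPA, which work as 1 complex, did not lie together. RPA2 had spot medians of 1145 on the irradiated and 1024 on the untreated array, a ratio of 1.23 (1.30 on the value table) in column 39. RPA1, the largest subunit and the main DNA-binding one, had 329.7 on the irradiated and 479.6 on the untreated array, a ratio of 0.773 (0.783 on the value table) in column 27. RPA3 had 760.3 on the irradiated and 990.1 on the untreated array, a ratio of 0.851 (0.885 on the value table) in column 53. RPA1 was lower and RPA2 higher in every setting that gave them a value, RPA2 at 2.13 with the local background subtracted. RPA3 turned to 1.13 under that subtraction. FEN1, the flap endonuclease, had 178 on the irradiated and 217 on the untreated array, a ratio of 0.913 (0.930 on the value table) in column 60. None of these 4 probes lies in the last 26 columns.

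Genes that couple the fork to chromatin held the lowest member. CHAF1A, the large subunit of the chaperone CAF-1 that places histones behind the fork, had spot medians of 52.6 on the irradiated and 98.3 on the untreated array, and a ratio of 0.715 (0.523 on the value table). Its probe lies in column 85, and with the chip trend taken off the ratio was 0.782 on the normalized signal and 0.659 on the value table. CHAF1B, its partner in CAF-1, had a ratio of 1.03. UHRF1, which guides maintenance DNA methylation at the fork, has 2 probes on either side of 1, with 82.1 and 43.0 brightness units on the irradiated array against 72.8 and 48.1 on the untreated array, giving ratios of 1.16 and 0.996. SLBP, which binds the stem-loop of histone messages, had a ratio of 1.12. With the background around each spot subtracted, SLBP turned to 0.927 and CHAF1B to 0.962. TIPIN, which with TIMELESS protects paused forks, had 73.4 on the irradiated and 59.1 on the untreated array, a ratio of 1.22 (1.47 on the value table) in column 62, whereas TIMELESS had a ratio of 1.02.

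The position of a probe on the chip moved with these values. Over all detected probes the median log2 difference was 0.09 in columns 1 to 13 and -0.15 in columns 92 to 104. Of the 54 member probes, 42 lie in columns 1 to 78, where 33 (78.6%) had a higher signal after IR, against 65.0% of all probes there. The other 12 lie in columns 79 to 104, where 3 (25%) were higher, against 25.4% of all probes there. Probes of some related genes share columns, with the loader in columns 84 and 91 and primase in column 83, while the GINS genes are spread over columns 15 to 71. When the median log2 difference of the probes around each probe was taken off, 34 members were higher, against 50.7% of all detected genes, the median was 0.07, and the clamp and loader had 5 of 6 members higher rather than 2 of 6. The firing genes kept 7 of 7 members higher. Of the 8 members with the lowest ratios, CHAF1A, RFC1, RPA1, PRIM2, ORC5, RPA3 and FEN1 stayed below 1 with this correction and RFC5 turned to 1.07.

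**Figure D3:**
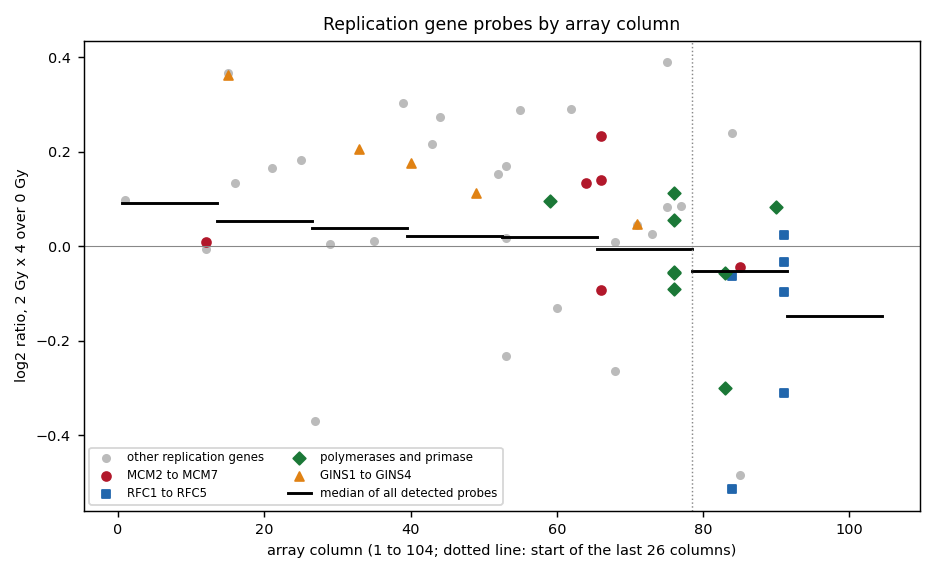
Each point is a replication gene probe, plotted by its array column (x axis) and its log2 ratio of 2 Gy × 4 over 0 Gy on the normalized signal (y axis). Black bars are the medians of all detected probes in bands of 13 columns, which run between 0.09 and -0.15, and the dotted line marks the start of the last 26 columns. The clamp loader (squares) lies wholly right of that line and the GINS genes (triangles) wholly left of it.

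Beside the members, 31 other genes of origins and forks that were not among the 49 had a median log2 difference of 0.12, with 22 higher and 9 lower. RNASEH2C, a subunit of ribonuclease H2, which removes ribonucleotides from DNA, reached 1.5-fold lower (0.642), with probes in columns 69 and 103, but not with the chip trend taken off (0.675). Its partner RNASEH2B, in column 7, had a ratio of 1.40 (1.24 with the trend taken off). ASF1B, a chaperone that hands histones to CAF-1, had a ratio of 1.44, on the other side of 1 from CHAF1A. The 13 genes of nucleotide supply had a median of 0.08, with 8 higher, and RRM2, the S-phase subunit of ribonucleotide reductase, had a ratio of 0.813. The 25 cyclin, CDK and E2F genes of G1 and S phase had a median of 0.03, with 15 higher (60%). This share and the 61.5% of the nucleotide supply genes lay near the 55.3% of all detected genes. With the chip trend taken off, 12 of 25 and 7 of 13 were higher, against 50.7% of all detected genes. CCNA2, the cyclin of S and G2 phase, had a ratio of 1.35. Its kinase partner CDK2, in column 102, had 0.695 (0.789 with the chip trend taken off).

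The genes of G2 and mitosis lay farther from 1 than the replication genes. Of 40 detected, 39 had a higher signal after IR, 13 of them at least 1.5-fold, with a median log2 difference of 0.40 against 0.08 in the replication genes. Among them TOP2A, the topoisomerase that untangles replicated chromosomes, had a ratio of 1.97. By the values in the table, 29 of the 40 passed 1.5-fold in the higher direction, against 2 of the 49 replication genes and 3.98% of all detected genes. Of the 34 matched promoter windows of the G2 and mitosis genes, 2 (5.88%) held one of the E2F words. That share was near the 5.69% of all detected genes with a window.

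**Figure D4:**
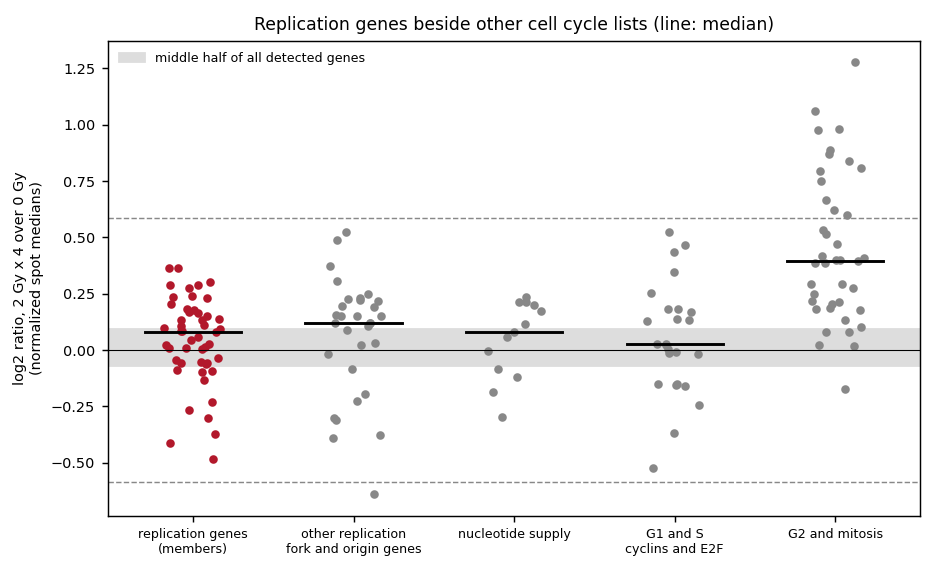
Points are genes and the y axis is the log2 ratio of 2 Gy × 4 over 0 Gy on the normalized signal; the replication genes stand beside 4 other lists, thick lines are list medians, dashed lines 1.5-fold, and the grey band the middle 50% of all detected genes. No replication gene crosses a dashed line (median 0.08), while 13 genes of G2 and mitosis lie above the upper one (median 0.40).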

How the data were processed

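The authors deposited 1 scanner file per array, with spot median intensity on a linear scale, neither background-subtracted nor scaled, and a value table of processed intensity. The steps behind the table are not stated in the paper or labels. Plotted on the spots it was linear and uncentred (largest deviation 0.489% for values above 10), and its direction matched the scanner files by array.

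From the spot medians, limma 3.58.1 (R 4.3.3) applied normexp correction with offset 50 and quantile normalization over 24456 gene probes, with flagged spots left out at the start and blank and control spots after the correction. Detection meant a spot above the 95th percentile of the blanks of its array. Probes were averaged per gene on the log2 scale, and ratios are irradiated over untreated. Probes were named by the platform annotation with symbols updated to RefSeq, or else by the scanner file (1788 probes stayed unnamed); 1 GINS3 probe was named by the platform annotation only. To correct for position, the median log2 difference of detected probes up to 11 rows and 8 columns away was subtracted. Other steps used Python 3.11.15, numpy 2.4.6, pandas 2.3.3 and matplotlib 3.10.9, and the steps were tested on simulated data.

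Members, lists and settings were chosen with earlier results of these data known. Any member could be named, and spot values were required for MCM2 to MCM7, PCNA, CDC45 and the 8 highest and 8 lowest members; of other lists, genes at 1.5-fold or among the 4 largest differences could be named. The number of arrays limits the precision. Alternatives covered scaling, background, value table, position, probe choice and dim-gene filters.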

Additional observations from a re-analysis of the deposited data

How the results depend on the processing

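The median log2 difference of the replication genes stayed above 0 under all 14 alternatives. It ran between 0.02 with the local background subtracted and 0.15 on the authors' value table. Among members brighter than the median gene it was 0.03, and 18 of 29 had a higher signal. With the local background subtracted 26 of 49 members were higher, and 29 of 49 with a loess curve in place of quantile normalization. For the brighter genes, the local background and the loess curve, no value over all detected genes was computed. The median over all detected genes was also above 0, at 0.01 on the normalized signal and 0.04 on the value table. The counts of members at least 1.5-fold higher and lower, 0 and 0 on the normalized signal, were 1 and 1 without background correction, 2 and 1 with offset 0, 1 and 1 with the local background subtracted (RPA2 and POLD2), 2 and 1 on the value table, and 1 and 1 on the value table with the position correction. The causes were not tested; an offset of 0 and the value table leave the ratios of dim probes unshrunk by construction. In every setting that gave them a value, 19 members were higher and 10 lower. The matching counts over all detected genes were not computed. Neither were all-gene shares at 1.5-fold without background correction, with offset 0 or with the local background subtracted. A value was given for 38 members outside the last 26 columns, for 29 among the brighter genes, and for all 49 elsewhere. Subtracting the local background turned 13 members, and the position correction 7. The shares of all detected genes that turned were not computed. The local background correlated with the spot (Spearman 0.909 on the irradiated and 0.928 on the untreated array, across gene probes, which are not replicates). Dim probes, such as those of MCM10 and GINS4, limit what the ratios can show. No paired analysis was possible because each condition has 1 array.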
